A study of Dendrobium nobile with 12 samples.

Results

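Among the gene models of the orchid Dendrobium nobile, 37 were present in every library of stem, leaf, bud, petal and labellum and nearly absent from both root libraries. They were chosen from the deposited FPKM values (fragments per kilobase of model, scaled to the library total) as the models at 5 FPKM or more in all 10 aerial libraries and under 0.5 FPKM in both root libraries. They are 0.117% of the 31672 models in the table and 0.429% of the 8624 models that reached 5 FPKM in all 10 aerial libraries. The contrast of root with the aerial organs chose these models, so the root values below are a description and carry no test. Differences among the 5 aerial organs entered the choice only through the floor of 5 FPKM, and those were tested.

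The study sequenced messenger RNA of 6 tissues of plants of 1 genotype grown in a greenhouse, with 2 libraries per tissue. Seedlings 1 year old gave root, stem and leaf, and seedlings 2 years old gave bud, petal and labellum. The labels do not say which kind of bud was taken; bud is counted here with petal and labellum as floral, and organ class cannot be told apart from seedling age. The labellum is the lip of an orchid flower, a modified petal. The series title concerns a reference genome of this species and its picrotoxane-type sesquiterpenoid alkaloids. Its design text names D. officinale, while each library's organism label is D. nobile.

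In flowering plants the stem, leaves and flowers all arise from the shoot apical meristem, and roots grow from meristems of their own. Functions shared by aerial organs and reduced or absent in most roots include photosynthesis, a waxy cuticle and stomata. Roots of epiphytic orchids are unusual in carrying a spongy outer layer, the velamen, and are often green. The deposited identifiers carry no product, so no function is given for any model, and the tissue labels could not be checked against marker genes. In whole organs, fewer cells of a type and less RNA per cell cannot be told apart.

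Total counts were 14165136 and 5289212 in the root libraries and between 27175842 and 32040196 in the aerial ones, so root was sampled less deeply. Whether a tissue's libraries represent different plants is not stated, and the p-values therefore measure the spread between libraries, which may be technical. That spread was uneven. The biological coefficient of variation over the tested models was highest in bud (0.572), followed by root (0.354), labellum (0.294) and petal (0.194). It was lowest in stem (0.0757) and leaf (0.0724). The edgeR tests below pooled the spread of each model over all tissues, so p-values and SEs are not specific to the organs compared. Spread in bud thus entered the comparisons of stem with leaf and of labellum with petal. The quieter organs entered the comparisons with bud, whose SEs may therefore be too small.

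Root was the organ most often missing from otherwise broad expression. With each organ in turn in the place of root, the same thresholds found 4 models missing from leaf, 1 from stem, 1 from petal, and 0 from bud and 0 from labellum, against 37 for root. The 6 models of the other organs lay between 0.0976 and 0.491 FPKM in the organ they were missing from. Root also led at looser thresholds: 68 models were under 1 FPKM in both root libraries and 374 were under 5 FPKM, while the next organ, leaf, had 10 and 97. Root is also the organ with the fewest reads, and the smaller number of reads was not tested as a part of this difference.

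**Figure D1:**
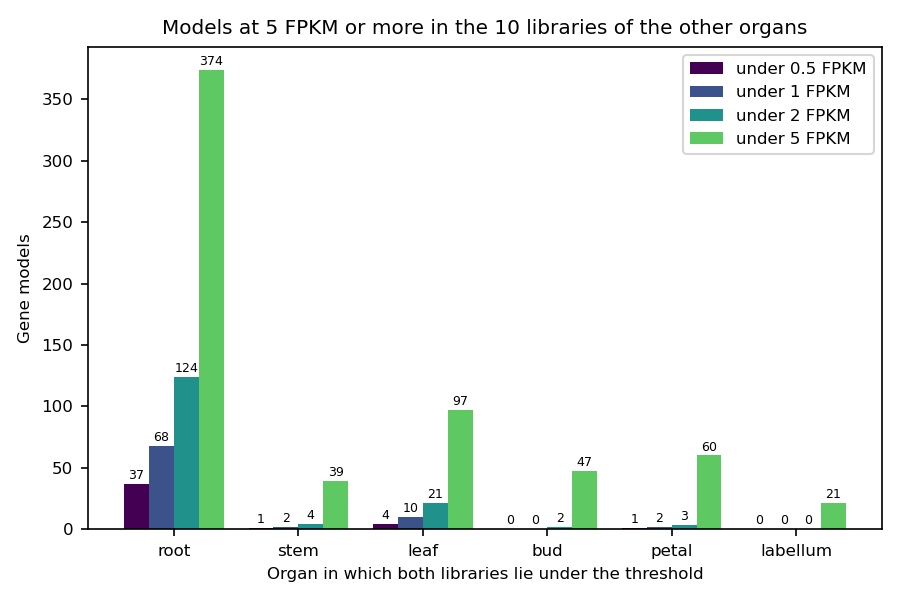
Number of gene models (vertical axis) at 5 FPKM or more in all 10 libraries of the other organs and under a threshold in both libraries of the organ on the horizontal axis; bar colours give thresholds of 0.5, 1, 2 and 5 FPKM. Root has the tallest bar at each threshold, from 37 to 374 models, followed by leaf with 4 to 97.

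The thresholds divide a continuous range. Just inside the root limit were evm.model.Chr08.502-gene, with 0.185 and 0.496 FPKM in root replicates 1 and 2, and evm.model.Chr17.278-gene, with 0.490 and 0. Just outside were evm.model.Chr17.190-gene, with 0.145 and 0.519, and evm.model.Chr18.319-gene, with 0 and 0.521. For evm.model.Chr18.319-gene, a model of 363 bp, that value was a single read. At the aerial floor, evm.model.Chr09.1643-gene entered at 5.01 FPKM in labellum replicate 1 and evm.model.Chr15.1343-gene at 5.04 in stem replicate 2. The nearest models left out were evm.model.Chr18.2166-gene, at 4.91 in leaf replicate 1, and evm.model.Chr15.822-gene, at 4.88 in stem replicate 1. The number of models followed from these limits, and it was 69 without root replicate 1 and 67 without root replicate 2. Of the 8624 broadly aerial models, 53 (0.615%) had a mean root level under 0.5 FPKM, 169 (1.96%) under 2 and 502 (5.82%) under 5, with a median of 34.2.

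Root held few reads of the 37 models. Together they had 90 reads in root replicate 1 and 30 in root replicate 2, which is 6.35 and 5.67 CPM (counts scaled to the library total). In the aerial libraries they took between 765 CPM in stem replicate 1 and 2204 CPM in bud replicate 2. The exact Poisson 95% interval was 5.11 to 7.81 CPM in root replicate 1 and 3.83 to 8.10 in root replicate 2, and the intervals overlap. Of the 37 models, 7 had no read in either root library, 13 had reads in 1 of them and 17 in both. The median was 2 reads in root replicate 1, where 9 models had none, and 1 read in root replicate 2, where 18 had none. These intervals, and all limits below, leave out any error other than counting, and reads copied by PCR count more than once.

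Depth and length set how many reads the threshold tolerated. A model of median length, 726 bp, stays under 0.5 FPKM with up to 5 reads in root replicate 1 and with 1 read in root replicate 2. Below a length of 378 bp a single read in root replicate 2 passes 0.5 FPKM, and 3 of the 37 models were that short (evm.model.Chr05.98-gene, evm.model.Chr07.115-gene and evm.model.Chr19.1436-gene). At the level of its lowest aerial organ a model would have had between 33.1 and 856 reads in root replicate 1 (median 106) and between 12.4 and 320 in root replicate 2 (median 39.5). The reads found were at most 14 and 5. Because the models were chosen for low root values, intervals and limits on their root reads describe counting error and are no test of the root level.

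**Figure D2:**
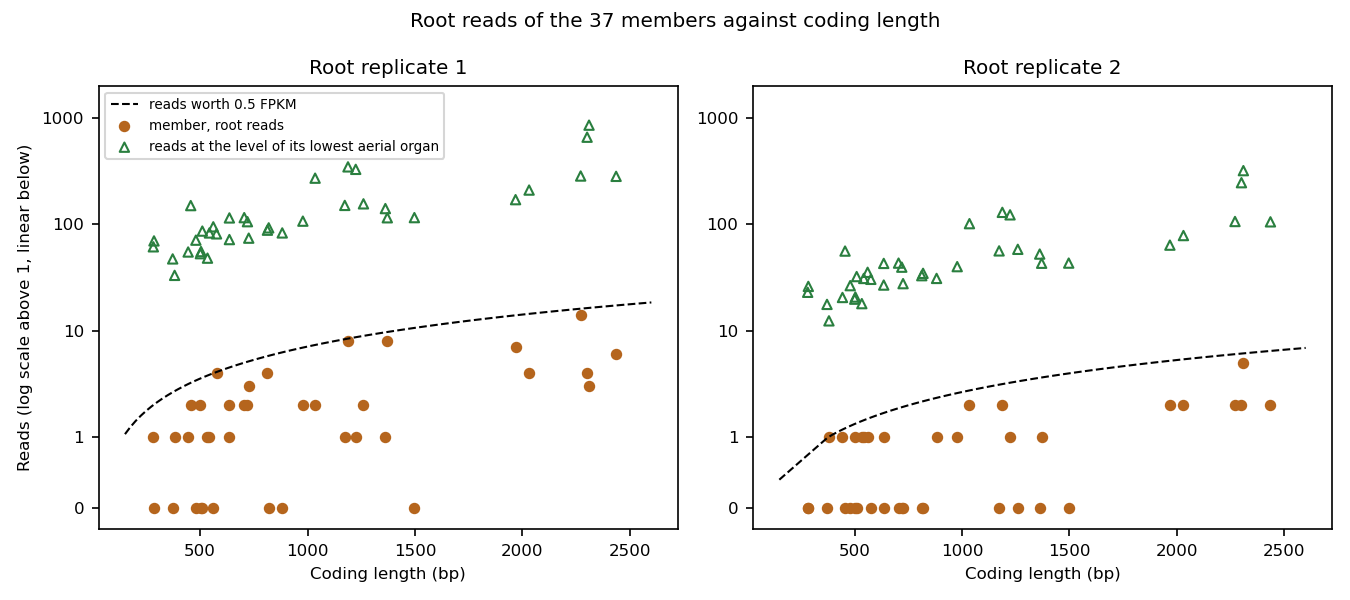
Reads of each of the 37 models in root replicates 1 and 2 (vertical axis, logarithmic above 1) against coding length in bp (horizontal axis); filled points are the reads found, open triangles the reads expected at the level of the model's lowest aerial organ, and the dashed line the reads worth 0.5 FPKM. The points, at 0 to 14 and 0 to 5 reads, lie under the line by choice, and the triangles start at 33.1 and 12.4 reads.

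The 7 models with no root read were between 285 and 1497 bp long, and 3 counts over both root libraries, the limit set here for a count of 0, equal 0.103 to 0.541 FPKM for them. Against that limit, in pooled CPM, they were at least 34.8-fold to at least 299-fold higher in the aerial libraries. It is a one-sided limit, so these bounds are not on the same footing as the two-sided intervals given for models with root reads. The longest, evm.model.Chr15.1343-gene on chromosome 15 (1497 bp), has the lowest such limit, 0.103 FPKM. It stood at 5.87 and 5.04 FPKM in the stem libraries, 7.71 and 9.72 in leaf, 26.1 and 25.3 in bud, 50.3 and 65.3 in petal and 31.1 and 40.6 in labellum. The floral libraries all lay above the stem and leaf ones, and the pooled aerial level was at least 259-fold that of root. Its lowest organ mean, that of stem, was 52.9-fold the root limit. For evm.model.Chr11.1704-gene on chromosome 11 (510 bp) the pooled aerial level was at least 299-fold that of root. Its lowest organ mean, that of stem, was 39.5-fold the root limit. This model reached 451 and 200.1 FPKM in bud, 76.7 and 49.3 in petal and 38.9 and 61.1 in labellum. It stood at 13.4 and 16.5 in leaf and 8.54 and 15.4 in stem. Its bud libraries were more than 2-fold apart and still above each other library.

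Among the others without a root read, evm.model.Chr05.98-gene on chromosome 5 (285 bp) was low in stem, at 18.8 and 15.8 FPKM, and higher in leaf (61.8 and 66.8), bud (119 and 77.9), petal (86.1 and 123) and labellum (115 and 162). Leaf and bud were separate from stem, and the labellum values reached above those of petal. At only 10.7 FPKM on average over the aerial organs, evm.model.Chr12.532-gene on chromosome 12 (504 bp) was the weakest of the 7, and its ratio to root was at least 34.8. The remaining models were evm.model.Chr02.546-gene, evm.model.Chr07.115-gene and evm.model.Chr08.128-gene, with aerial averages of 24.4, 69.0 and 12.8 FPKM.

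At the other end, evm.model.Chr19.1370-gene on chromosome 19 (2271 bp) had the most root reads, 14 in replicate 1 and 2 in replicate 2. Those reads equal 0.435 and 0.167 FPKM, against 10.05 and 7.65 in stem, 11.4 and 11.3 in leaf, 25.5 and 26.7 in bud, 18.7 and 22.7 in petal and 14.3 and 15.2 in labellum. Its aerial to root ratio of pooled CPM was 45.0 (two-sided 95% counting interval 27.7 to 78.7). With 8 and 2 root reads, evm.model.Chr08.228-gene on chromosome 8 (1188 bp) had the highest pooled root level, 0.433 FPKM, and a ratio of 130 (70.5 to 270.5). The ratio was lowest for evm.model.Chr01.420-gene on chromosome 1 (1371 bp), which had 8 and 1 root reads and a ratio of 31.1 (16.4 to 68.02). It had as many root reads in all as evm.model.Chr13.593-gene (7 and 2), whose ratio was 174 (91.7 to 381). Over the 30 models with a root read the ratio had a median of 221 and ran up to 782 for evm.model.Chr18.2005-gene, where it rests on 1 read and its interval runs from 140.3 to 30886.

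The 37 models differed widely in level among the aerial organs. The average over the 5 organ means ran from 8.55 FPKM for evm.model.Chr09.1643-gene to 132 for evm.model.Chr17.1719-gene, with a median of 27.2, and 12 models passed 100 FPKM in at least 1 organ. Over all 8624 broadly aerial models the median of that average was 40.9 FPKM. The highest organ mean exceeded the lowest by a median of 5.11-fold, with a range of 1.40 to 40.9, against a median of 2.59-fold over the 8624. It did so by at least 5-fold in 19 models (51.4%, against 18.9% of the 8624) and by at least 10-fold in 12 (32.4% against 7.08%). At most 2-fold separated the organs in 3 models (8.11% against 30.8%). These shares are descriptions with no test.

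**Figure D3:**
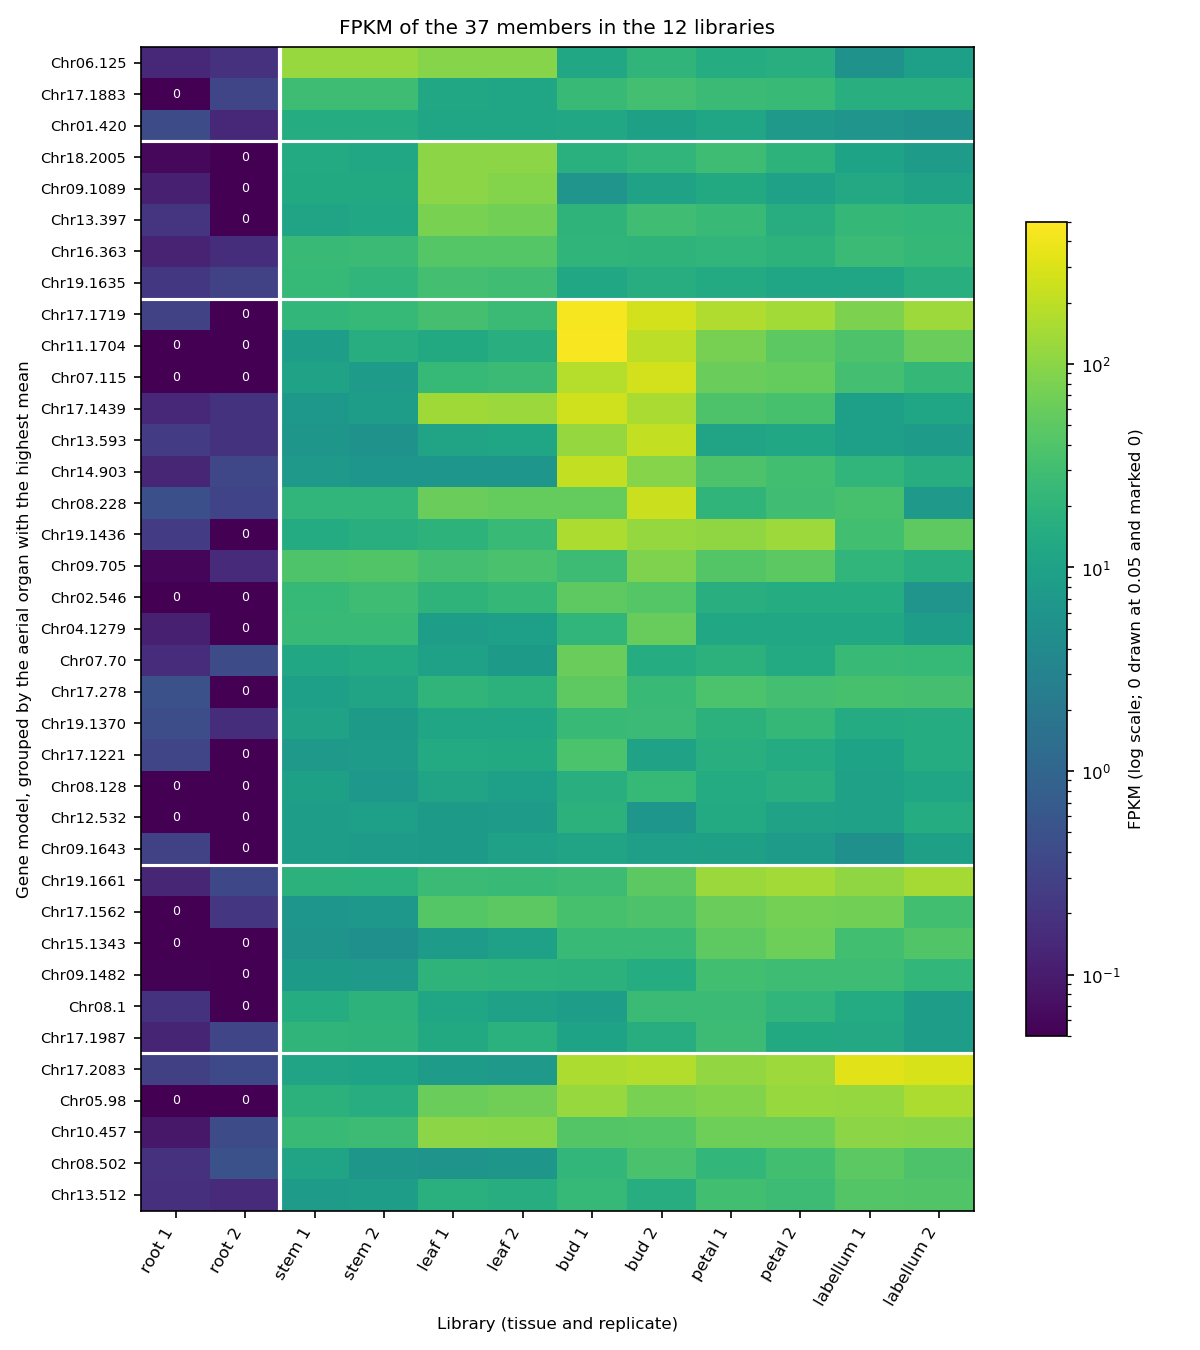
FPKM of the 37 models (rows, named by chromosome and model number) in the 12 libraries (columns), on a logarithmic colour scale from 0.05 to 500 with values of 0 marked; white lines separate root from the aerial organs and the groups of models by the organ with the highest mean. The root columns are dark in every row, and bud holds the largest group, with 18 rows.

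Bud was the organ of highest mean for 18 models, petal for 6, leaf for 5, labellum for 5 and stem for 3. Stem was the lowest organ for 18 models, leaf for 8, labellum for 8, petal for 2 and bud for 1. Of the 8624 broadly aerial models, 24.5% were highest in bud and 15.9% lowest in stem, against 48.6% for both among the 37. Highest in stem, leaf, petal and labellum were 26.1%, 18.2%, 16.4% and 14.8% of the 8624. Among the 37 these shares were 8.11%, 13.5%, 16.2% and 13.5%. Lowest in leaf, labellum, petal and bud were 34.0%, 11.2%, 21.7% and 17.2% of the 8624. Among the 37 they were 21.6%, 21.6%, 5.41% and 2.70%. Median levels of the 37 were 13.0 FPKM in stem, 19.7 in leaf, 29.1 in bud, 25.3 in petal and 18.96 in labellum. The bud libraries were more than 1.5-fold apart for 21 of the 37 models (56.8%, against 38.3% of the 8624) and the labellum libraries for 12 (32.4% against 9.03%). The petal libraries were so for 4 (10.8% against 3.05%), the stem libraries for 2 (5.41% against 0.452%) and the leaf libraries for 0 (0.568% of the 8624). Single values in bud are thus the least certain of those given here.

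The most abundant of the models, evm.model.Chr17.1719-gene on chromosome 17 (456 bp), stood at 437 and 262 FPKM in bud, 165 and 139.8 in petal and 82.6 and 128 in labellum. It was lower in leaf, at 33.6 and 26.7, and in stem, at 22.2 and 24.2, and had 2 and 0 reads in root. The second, evm.model.Chr17.2083-gene on the same chromosome (501 bp), was the most uneven of the 37, with organ means 40.9-fold apart. It reached 327 and 282 FPKM in labellum, 161 and 170.4 in bud and 113 and 130.4 in petal, and it stood at 10.8 and 10.6 in stem and 7.79 and 7.13 in leaf. All 6 floral libraries were more than 10-fold above all 4 libraries of stem and leaf, and root had 2 and 1 reads. Next in average level were evm.model.Chr11.1704-gene and evm.model.Chr05.98-gene, described above. The fifth, evm.model.Chr17.1439-gene on chromosome 17 (978 bp), was high in bud, at 258 and 155, and in leaf, at 136 and 126. It was intermediate in petal, at 37.5 and 34.4, and low in labellum, at 9.18 and 11.4, and in stem, at 6.73 and 8.73.

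The most even were models of low level. For evm.model.Chr09.1643-gene on chromosome 9 (726 bp) the values were 8.54 and 7.81 FPKM in stem, 7.48 and 9.89 in leaf, 10.9 and 9.18 in bud, 9.28 and 7.97 in petal and 5.01 and 9.40 in labellum, a range of organ means of 1.40-fold. Labellum held the lowest single value and, in its other library, a value within the range of the other organs. Organ means of evm.model.Chr12.532-gene were 1.63-fold apart, from 7.62 and 7.91 in leaf to 18.9 and 6.39 in bud, where the replicates differed more than the organs. For evm.model.Chr17.1987-gene on chromosome 17 (543 bp) the means were 1.89-fold apart, from 13.1 and 8.48 in labellum to 27.2 and 13.5 in petal. None of these 3 differed among the aerial organs in the test described next.

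Most of the 37 models differed among the 5 aerial organs. In edgeR's quasi-likelihood test for any difference among stem, leaf, bud, petal and labellum, 31 of the 37 (83.8%) passed an adjusted p of 0.05, against 72.0% of the 19123 models tested and 78.1% of the 8624 broadly aerial ones. The share is close to that background. Adjusted p values of the 31 lay between 6.18e-08 and 0.0297 (edgeR, Benjamini-Hochberg adjustment over all tested models). The 6 that did not pass had organ means 1.40-fold to 3.06-fold apart and adjusted p values between 0.108 and 0.745. Beside the 3 most even models they were evm.model.Chr01.420-gene, which ran from 6.17 and 5.70 FPKM in labellum to 15.2 and 15.1 in stem, and evm.model.Chr08.1-gene and evm.model.Chr17.1221-gene. The last 2 had bud libraries far apart, at 8.54 and 27.1 and at 36.8 and 9.94 FPKM. Missing the threshold does not show that their organs are equal.

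Among the 37 models, more were higher than lower in the floral organs, as against stem and leaf. A model was called when its adjusted p was under 0.05 and its change at least 2-fold. By this rule 17 models (45.9%) were higher in the mean of bud, petal and labellum than in the mean of stem and leaf, against 23.2% of all tested models and 27.8% of the 8624 broadly aerial ones. Lower in the floral organs were 2 models (5.41%), against 25.0% of all tested and 12.01% of the broadly aerial models. Among other broadly aerial models the share higher in the floral organs was 39.4% for the 132 with a mean root level under 2 FPKM. It was 21.8% at 2 to 10 FPKM, 19.6% at 10 to 50 and 40.1% at 50 or more. The median log2 fold change was 0.97 over the 37, 0.33 over the 8624 and -0.03 over all tested models. Folds of the 17 ran from 2.32 to 24.4, and in 12 of them the 6 floral libraries all lay above the 4 of stem and leaf. Such separation was counted for the 37 models alone, with no share over other models beside it.

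The leading model was evm.model.Chr17.2083-gene, whose values are given above. It had 197 ± 86.9 FPKM in the floral libraries (SD, n = 6) and 9.09 ± 1.90 in stem and leaf (n = 4), SDs that include differences between organs. Its log2 fold change was 4.61 ± 0.12 (SE), with an adjusted p of 5.60e-09 by edgeR. Next was evm.model.Chr11.1704-gene, with a log2 fold change of 3.18 ± 0.35 and an edgeR adjusted p of 3.70e-05. In the other direction, evm.model.Chr06.125-gene on chromosome 6 (2031 bp) stood at 121 and 119 FPKM in stem and 92.99 and 93.8 in leaf. It was at 12.4 and 20.5 in bud, 14.8 and 16.8 in petal and 5.58 and 9.02 in labellum, and at 4 and 2 reads in root. The lowest leaf value was more than 4-fold above the highest bud value, and the log2 fold change was -2.85 ± 0.16 with an edgeR adjusted p of 1.87e-07. The other model lower in the floral organs, evm.model.Chr09.1089-gene on chromosome 9 (636 bp), was high in leaf alone: 99.1 and 92.01 FPKM in leaf, 13.5 and 13.5 in stem, 5.99 and 9.97 in bud, 13.3 and 9.59 in petal and 12.8 and 10.2 in labellum. Its log2 fold change was -1.57 ± 0.18 with an edgeR adjusted p of 3.40e-05, and its stem values were barely above the highest petal value.

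Coding length moved with this comparison. Of the 37 models 14 (37.8%) were under 600 bp, against 20.9% of the 8624, and their median length was 726 bp against 1041 bp. Among the 14 short models 10 were higher in the floral organs (71.4%, against 53.5% of the 1806 broadly aerial models of that length), and among the 23 longer ones 7 (30.4%, against 21.02% of 6818). By mean root level, the share in other short models was 48.8% under 2 FPKM, 29.8% at 2 to 10, 43.4% at 10 to 50 and 66.8% at 50 or more. With each library's trend with coding length removed, 17 models were again higher, 16 of them among the 17 first called.

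**Figure D4:**
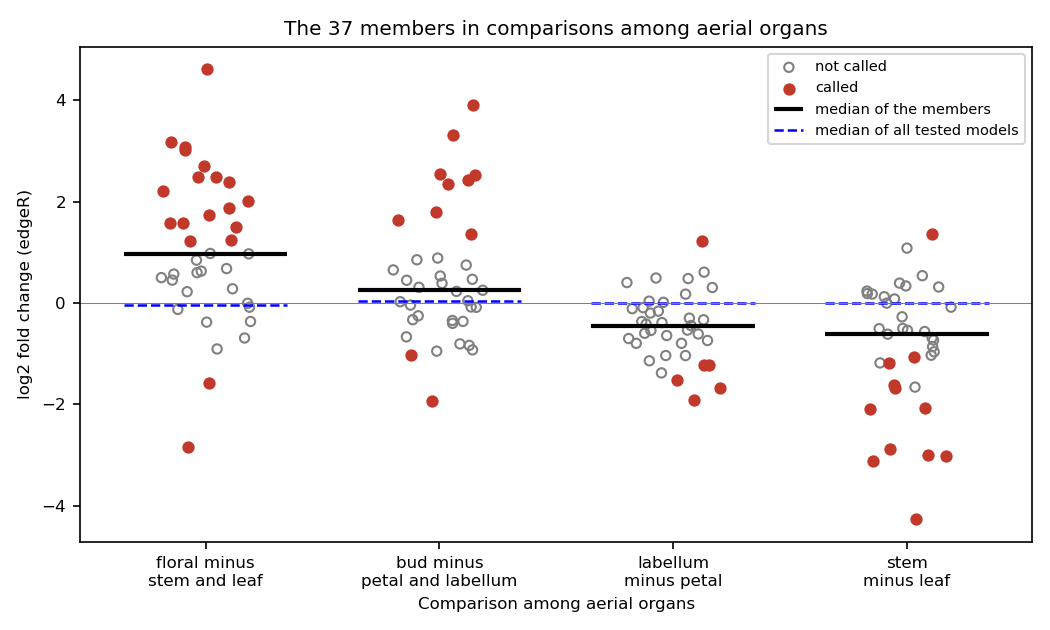
log2 fold change (vertical axis, edgeR) of the 37 models in 4 comparisons among aerial organs (horizontal axis); filled points passed an adjusted p of 0.05 and a 2-fold change, open points did not, black bars are medians of the 37 and dashed blue bars medians of all tested models. The points lean upwards for floral organs (17 higher, 2 lower) and downwards for stem against leaf (1 higher, 11 lower).

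Bud exceeded petal and labellum in 9 of the models. Against the mean of petal and labellum, 9 models (24.3%) were higher in bud and 2 (5.41%) lower, against 12.6% and 6.19% of all tested models and 5.31% and 6.64% of the broadly aerial ones. Of the 132 other broadly aerial models with a mean root level under 2 FPKM, 19.7% were higher in bud and 6.06% lower. The median log2 fold change was 0.25 over the 37 and 0.30 over the 132. Folds of the 9 ran from 2.56 to 14.9. The steepest was evm.model.Chr13.593-gene on chromosome 13 (1968 bp), with 116 and 218 FPKM in bud, 10.9 and 12.5 in petal and 9.12 and 8.25 in labellum. It stood at 10.9 and 11.7 in leaf and 6.48 and 5.76 in stem, so that bud was the one organ in which it was abundant. Its log2 fold change against petal and labellum was 3.90 ± 0.19 (SE), with an edgeR adjusted p of 6.84e-06. Second was evm.model.Chr17.1439-gene, with 3.32 ± 0.23 and an edgeR adjusted p of 2.27e-05. Of the 9, 5 were also among the 17 models higher in the floral organs, an overlap that was not counted over other models.

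The 2 models lower in bud were evm.model.Chr19.1661-gene and evm.model.Chr10.457-gene. On chromosome 19, evm.model.Chr19.1661-gene (1035 bp) stood at 27.2 and 48.4 FPKM in bud, 127 and 142 in petal and 109 and 143 in labellum, with 26.7 and 25.7 in leaf and 18.9 and 18.2 in stem. The bud libraries were below each petal and labellum library, and the log2 fold change was -1.94 ± 0.23 with an edgeR adjusted p of 0.000289. On chromosome 10, evm.model.Chr10.457-gene (2310 bp) was about equally high in leaf (99.4 and 97.3 FPKM) and labellum (101 and 99.02), intermediate in petal (66.6 and 64.7) and bud (42.1 and 44.8), and lowest in stem (24.7 and 27.7). Its log2 fold change for bud was -1.03 ± 0.20 with an edgeR adjusted p of 0.00436. That call sits at the 2-fold limit and is lost under DESeq2 size factors (-0.97), under total counts (-0.90) and without bud replicate 2 (-0.99), among others. Without bud replicate 1 the number of models lower in bud was 5, and without bud replicate 2 it was 1.

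Petal and labellum differed in few of the models. Higher in labellum was 1 model (2.70%), against 2.09% of all tested and 1.21% of the broadly aerial models. Lower in labellum were 5 (13.5%), against 1.67% and 1.70%. The median log2 fold change was -0.45 over the 37, -0.07 over the broadly aerial models and 0 over all tested models. Over the 132 other broadly aerial models with a mean root level under 2 FPKM it was -0.20. Of those 132, 6.82% were lower in labellum and 2.27% higher. The model higher in labellum was evm.model.Chr17.2083-gene, at 1.21 ± 0.15 with an edgeR adjusted p of 0.00265. The leading lower models were evm.model.Chr17.1439-gene, at -1.92 ± 0.28 with an edgeR adjusted p of 0.00620, and the short evm.model.Chr19.1436-gene, at -1.68 ± 0.34 with 0.0236. On chromosome 19 the latter, at 282 bp the shortest of the 37, stood at 108 and 132 FPKM in petal, 30.5 and 50.2 in labellum, 163 and 115 in bud, 19.04 and 25.9 in leaf and 14.6 and 16.2 in stem. Both petal libraries were above both labellum libraries, and petal and bud overlapped. The 5 calls depend on the libraries: they were 2 without either stem, either labellum library or petal replicate 2, 3 without either leaf library, 8 without either bud library and 0 without petal replicate 1. Without petal replicate 1 the adjusted p of evm.model.Chr17.1439-gene was 0.0512 (edgeR), and that of evm.model.Chr19.1436-gene rose above 0.05 when any one of the stem, petal or labellum libraries was left out, up to 0.153 without petal replicate 2. With the length trend removed the log2 fold change of evm.model.Chr19.1436-gene was -1.38 and its edgeR adjusted p 0.0517.

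Stem was below leaf in 11 of the models. These are 29.7% of the 37, against 8.27% of all tested models and 9.26% of the broadly aerial ones, and 1 model (2.70%) was higher in stem, against 7.01% and 3.91%. The median log2 fold change of stem minus leaf was -0.62 over the 37, -0.01 over the 8624 and 0 over all tested models. Folds of the 11 lower models ran from 2.10 to 19.3. The largest was that of evm.model.Chr17.1439-gene, with 6.73 and 8.73 FPKM in stem and 136 and 126 in leaf, a log2 fold change of -4.27 ± 0.31 (SE) and an edgeR adjusted p of 4.08e-05. On chromosome 18, evm.model.Chr18.2005-gene (1173 bp) stood at 99.2 and 99.8 FPKM in leaf and 13.8 and 12.3 in stem, with 17.01 and 21.6 in bud, 28.5 and 19.4 in petal and 10.3 and 7.82 in labellum. Leaf was its one high organ, and the log2 fold change of stem minus leaf was -3.12 ± 0.26 with an edgeR adjusted p of 6.10e-05.

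The model higher in stem, evm.model.Chr04.1279-gene on chromosome 4 (1260 bp), had 25.7 and 25.03 FPKM in stem and 8.42 and 9.04 in leaf. In bud it had 21.2 and 58.2, in petal 12.01 and 12.2 and in labellum 12.6 and 8.70, so stem and bud were its higher organs. Its log2 fold change was 1.35 ± 0.38 with an edgeR adjusted p of 0.0348, which rose above 0.05 without either stem, either leaf or either petal library, up to 0.195 without leaf replicate 1. The number of models higher in stem was 0 without any 1 of those libraries and 2 without either root or either bud library. Overlaps between comparisons were counted for the 37 models alone, with no share over other models beside them. Of the 17 models higher in floral organs 6 were also among the 11 lower in stem than in leaf. Across the 4 comparisons 11 of the 37 models were called in none, 8 in 1, 15 in 2, 2 in 3 and 1 in all 4. That last model was evm.model.Chr07.115-gene on chromosome 7 (372 bp), without a read in root. It stood at 9.93 and 8.01 FPKM in stem, 24.2 and 26.3 in leaf, 181 and 268 in bud, 60.98 and 56.98 in petal and 31.8 and 22.7 in labellum, so that its libraries ranked without overlap from bud through petal down to stem, with leaf and labellum overlapping.

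The models not yet described, named here after their values were seen so that each of the 37 is covered, follow here. In the floral group, evm.model.Chr14.903-gene (534 bp) stood at 215 and 95.1 FPKM in bud, 38.4 and 31.1 in petal and 21.2 and 15.5 in labellum, against 7.37 and 6.27 in stem and 6.31 and 6.39 in leaf. The short evm.model.Chr08.502-gene (381 bp) was highest in labellum, at 48.4 and 38.5, and lowest in leaf, at 5.82 and 6.45. For evm.model.Chr17.278-gene (576 bp) the values ran from 9.01 and 10.9 in stem to 50.7 and 24.7 in bud, and for evm.model.Chr07.70-gene (444 bp) from 9.77 and 7.69 in leaf to 62.02 and 15.1 in bud. In both the bud libraries were far apart. The lowest values were in stem and the highest in petal for evm.model.Chr09.1482-gene (1362 bp), with 7.50 and 7.08 in stem, 19.7 and 19.6 in leaf and 31.05 and 28.3 in petal, and for evm.model.Chr17.1562-gene (882 bp), with 6.40 and 6.88, 44.6 and 49.6 and 60.4 and 73.97.

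Leaf was the highest organ of evm.model.Chr13.397-gene (705 bp), at 78.00 and 71.5 FPKM against 10.8 and 12.4 in stem, of evm.model.Chr16.363-gene (2301 bp), at 44.02 and 43.4 against 24.8 and 26.2, and of evm.model.Chr19.1635-gene (636 bp), at 31.4 and 29.3 against 23.6 and 21.4. The first of these was called lower in stem than in leaf, and the others were not. Highest in bud by 1 library were evm.model.Chr08.228-gene, at 56.7 and 243 in bud and 61.1 and 57.3 in leaf, and evm.model.Chr09.705-gene (1224 bp), at 27.5 and 83.5 in bud and 39.8 and 40.9 in stem. The bud libraries of evm.model.Chr02.546-gene (480 bp), at 51.1 and 44.9, were both above its stem libraries, at 24.03 and 28.9, and those of evm.model.Chr08.128-gene (819 bp), at 16.1 and 24.3, were both above its petal libraries, at 14.2 and 15.8. Stem was the highest organ of evm.model.Chr17.1883-gene (561 bp), at 29.1 and 28.3 against 24.7 and 32.1 in bud, where the libraries overlap, and 12.1 and 11.7 in leaf, where they do not.

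The lean of the 37 towards bud and away from stem was shared in part by other broadly aerial models of low root level. Stem was the lowest aerial organ for 48.6% of the 37, for 31.1% of the 132 other models with a mean root level under 2 FPKM, for 21.3% of the 1017 models at 2 to 10 FPKM and for 13.4% of the 4277 models at 10 to 50. It was 16.7% for the 3161 models at 50 FPKM or more. Bud was the highest organ for 48.6%, 34.1%, 27.4%, 21.5% and 26.8% of the same groups. The share called lower in stem than in leaf was 29.7%, 26.5%, 21.04%, 8.63% and 5.38%. The median ratio of highest to lowest aerial organ was 5.11, 4.67, 2.89, 2.37 and 2.78, and the median coding length 726, 826.5, 1005, 1140 and 927 bp. Among models of 600 bp or more the shares lowest in stem were 52.2%, 26.4%, 18.95%, 11.03% and 14.3%, and the shares highest in bud were 39.1%, 26.4%, 24.6%, 16.5% and 16.3%. Among shorter models the shares lowest in stem were 42.9%, 41.5%, 30.2%, 26.3% and 22.8%, so the 37 stood beside the other models of low root level. Their shares highest in bud were 64.3%, 51.2%, 38.1%, 49.3% and 54.2%, with no steady decline with root level. These classes of root level were drawn after the values were seen, and the shares are descriptions with no test.

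**Figure D5:**
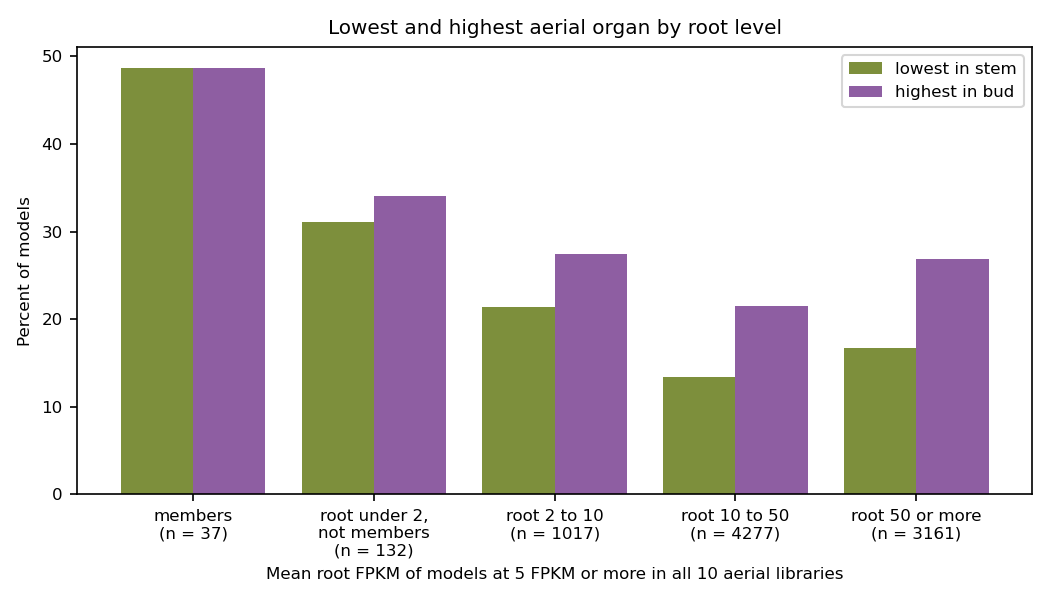
Percent of models (vertical axis) whose lowest aerial organ was stem or whose highest was bud, for the 37 models and for the other models at 5 FPKM or more in all 10 aerial libraries, by mean root FPKM (horizontal axis). Both bars are tallest for the 37 models, at 48.6%, and decline to 13.4% and 21.5% in the class of 10 to 50 FPKM.

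The 37 models were spread over 18 of the 19 chromosomes. Chromosome 17 held 8 of them (21.6%), against 7.31% of the broadly aerial models, chromosomes 8, 9 and 19 held 4 each, and chromosome 3 held 0. No 2 of them had consecutive numbers; the nearest pair, evm.model.Chr19.1635-gene and evm.model.Chr19.1661-gene, was 26 numbers apart. No model within 5 numbers of a member had the same coding length. The longest member was evm.model.Chr13.512-gene on chromosome 13 (2436 bp), with 6 and 2 root reads and 7.72 and 8.66 FPKM in stem, 17.1 and 15.8 in leaf, 24.1 and 15.8 in bud, 30.5 and 28.1 in petal and 42.9 and 40.8 in labellum. Its labellum libraries were the highest and its stem libraries the lowest.

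Neighbours of the 37 resembled the table as a whole in root level. Of the 73 models numbered directly before or after a member, 35 (47.9%) had a mean root level of at least 1 FPKM, the same share as of all models in the table (47.9%). Another 37 were under 0.5 FPKM in root, and 17 of them had no read in any library, as had 9283 of the 31672 models in the table. The share over all models was not taken for the 37 or for the next count. In 6 the root level was under 0.5 FPKM and at least 1 aerial organ reached 5 FPKM. Of these, named after their values were seen, evm.model.Chr09.1642-gene (378 bp) had 0 root reads and 313 ± 37.4 FPKM in bud (SD, n = 2), beside evm.model.Chr09.1643-gene, the most even of the 37. Likewise evm.model.Chr17.1563-gene (345 bp), beside evm.model.Chr17.1562-gene, had 0 root reads and 267 ± 228 FPKM in bud (n = 2), where its libraries were far apart. Next to evm.model.Chr17.1439-gene, evm.model.Chr17.1438-gene (1323 bp) had 2 root reads and peaked in stem, at 70.1 ± 1.76 FPKM (n = 2), the organ in which its neighbour was lowest.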

How the data were processed

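Polyadenylated RNA of 6 tissues was sequenced, with 2 libraries each, from libraries made with a SMARTER mRNA kit per the labels' protocols. The authors deposited 1 table of read counts and 1 of FPKM values, per gene model and library. The deposited FPKM equals the count divided by a fixed model length and by the library's total count; lengths recovered this way agreed to within 0.01 bp for 100% of 224365 values. All lengths are multiples of 3, so they are coding lengths. For the aligner, the counter and the strand setting nothing is given in the sources used here, and the genome builds listed in the submitters' processing notes are mouse builds. Reads shared by near-identical models may therefore have been split or lost in a way that cannot be checked.

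The 37 models were taken from the FPKM values, and root limits from the counts. Differences among aerial organs were tested on the deposited counts with edgeR 4.0.16 (R 4.3.3): models passing filterByExpr (19123, among them all 37), TMM scaling, 1 mean per tissue over all 12 libraries, quasi-likelihood F tests on 6 residual degrees of freedom, and Benjamini-Hochberg adjustment over all tested models. The fit was tested on simulated data. A call in a comparison needs an adjusted p under 0.05 and a change of at least 2-fold; SEs are the log2 fold change divided by the root of F. Alternatives were DESeq2 1.42.0 and its size factors, total counts, limma 3.58.1 on log2(FPKM + 1) and log2(FPKM + 0.1), voom with tissue weights, no filter on low counts, aerial libraries alone, a correction for coding length, a replicate block and each library left out. The 37 models, the comparisons and the groupings were chosen with earlier results of these data known.

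Models named are the 5 of highest average level, the 3 with the largest bound on the aerial to root ratio, the 3 with most root reads, the 3 most even and the 3 most uneven, up to 2 called per comparison and direction with the largest change and no overlap, the shortest and longest, and the 2 nearest each side of both thresholds. Any other model named beside a count was named after its values were seen.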

Additional observations from a re-analysis of the deposited data

How the results depend on the processing

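The number of models followed the thresholds: 19 with a root limit of 0.25 FPKM, 68 with 1 FPKM, 100 with an aerial floor of 2 FPKM and 10 with a floor of 10, and 37 to 69 with 1 library left out. The counts of 31 models differing among aerial organs, 17 higher in floral organs, 9 higher in bud and 11 lower in stem than in leaf stayed within 1.5 times under each alternative run; with 1 library left out they ran from 26 to 34, 17 to 19, 9 to 10 and 9 to 14. Which models were called higher in bud changed more than their number. Without bud replicate 1, 8 of the 9 called were among the first 9, and without bud replicate 2, 7 of the 10 called. The small counts moved. The 2 models lower in bud became 1 under DESeq2 size factors, total counts, DESeq2 and limma with either pseudocount, and 4 with the length trend removed. The 5 lower in labellum became 3 under limma with a pseudocount of 0.1 and with the length trend removed, and 8 under voom with tissue weights. The 1 model higher in stem became 2 under total counts, DESeq2, limma with a pseudocount of 1, voom and aerial libraries alone, and 0 under limma with 0.1. With 1 library left out, 2 to 3 models were lower in floral organs, 1 to 5 lower in bud, 1 higher in labellum, 0 to 8 lower in labellum and 0 to 2 higher in stem. Limma with a pseudocount of 0.1 also ended the calls of evm.model.Chr19.1436-gene (adjusted p 0.115), evm.model.Chr04.1279-gene (0.0582) and evm.model.Chr10.457-gene (0.0632), and removing the length trend ended those of evm.model.Chr19.1436-gene (0.0517) and evm.model.Chr10.457-gene (log2 fold change -0.97). The cause of these moves was not tested. Total counts in place of TMM moved the median over all tested models, on the log2 scale, from -0.03 to -0.28 for floral organs, from 0.03 to 0.17 for bud and from 0 to 0.18 for stem minus leaf. No pairing of libraries by replicate number was evident: deviations of same-numbered libraries correlated over 0.1 in 1 of 15 tissue pairs (-0.30 to 0.117). Weak correlations cannot exclude that same-numbered libraries share plants, because spread between libraries can hide a small shared part. A fit with the replicate block gave 31 models differing among organs, 17 higher and 2 lower in floral organs, 9 and 2 in bud, 1 and 5 in labellum and 1 and 11 in stem, the counts found without it. Depth limits the root values: in root replicate 2 a single read passes 0.5 FPKM for the 3 models under 378 bp.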
